A study of Mus musculus with 15 samples.

Results

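Of 93215 accessible regions outside the mitochondrial genome in mouse liver cells, 914 (0.981%) were accessible in bile duct cells and less so both in hepatocytes of injured liver and in hepatocytes that had been reprogrammed towards the duct fate during the injury. They were selected on measured values, by a rule on group means of nuclear RPM, the reads of a region scaled to 1000000 reads over all regions outside the mitochondrial genome. Both biliary means had to be 5 or more, the mean of reprogrammed cells at most 0.5 times each of them, and the mean of DDC hepatocytes at most 0.5 times that of DDC biliary cells. The bounds are relative and none is set on untreated hepatocytes, so not every member is closed in hepatocytes: the highest member mean was 50.3 nuclear RPM in DDC and 43.06 in untreated hepatocytes. Without the bound on reprogrammed cells the rule gave 7342 biliary regions, so the 914 made up 12.45% of them. Another 2526 biliary regions (34.4%) had caught up, with reprogrammed cells at 0.8 times or more of both biliary means, and 3902 lay between. The word lagging describes a level at 1 time of sampling, since the labels give no time course.

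The study used ATAC-seq, in which a transposase inserts sequencing adapters into open chromatin, so that reads pile up where DNA is accessible. There were 15 libraries in 5 groups of 3: untreated mice gave hepatocytes and biliary cells, and mice given DDC (diethoxycarbonyl-dihydrocollidine, a feed additive that injures bile ducts) gave both of these and reprogrammed hepatocytes. Cells were sorted straight from the liver, with no culture step. The sources used here do not give the dose, duration, age, strain, sort markers, any lineage label or the way reprogrammed cells were recognised. Whether replicates were separate mice or pools is not labelled either, so the p-values cover only the spread from library to library, which may be technical.

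Hepatocytes and cholangiocytes, the epithelial cells of bile ducts, arise from a common progenitor and keep different sets of enhancers and promoters open. Under chronic duct injury some hepatocytes take on ductal features, a process often called ductal or biliary metaplasia, and switch on duct genes such as Sox9 and Spp1 to different extents. Cholangiocytes line a lumen: they hold tight junctions, an apical and a basal pole, a primary cilium and transporters that move ions and water into bile.

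For 96 of the 914 regions a promoter window of the RefSeq table (build GRCm38.p6, the mm10 assembly of the files) was overlapped, 113 windows of 101 genes in all. The bases upstream of 7 of these starts are printed because their regions carry the values below: the marker gene Arhgef38, 2 of the regions in which reprogrammed cells were lowest (Lrfn4 and Anxa9), 1 of the most open (Rasef), and 3 genes of junctions, duct identity and transport (Rab25, Tspan8 and Scnn1b). Each is 250 bases, 5′ to 3′ on the gene's strand, ending next to the start. Capitals mark a match to a searched motif, on either strand.
Arhgef38, chr3:133234950-133235199, minus strand: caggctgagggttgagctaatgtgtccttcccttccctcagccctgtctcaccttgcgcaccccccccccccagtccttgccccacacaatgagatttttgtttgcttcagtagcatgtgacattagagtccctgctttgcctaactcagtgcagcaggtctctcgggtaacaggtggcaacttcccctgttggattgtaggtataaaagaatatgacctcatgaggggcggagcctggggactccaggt
Lrfn4, chr19:4615668-4615917, minus strand: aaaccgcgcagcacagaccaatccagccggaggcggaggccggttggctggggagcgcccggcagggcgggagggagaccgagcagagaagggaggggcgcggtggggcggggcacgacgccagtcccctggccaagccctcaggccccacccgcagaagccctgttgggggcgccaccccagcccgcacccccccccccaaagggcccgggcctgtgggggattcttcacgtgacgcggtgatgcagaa
Anxa9, chr3:95307193-95307442, minus strand: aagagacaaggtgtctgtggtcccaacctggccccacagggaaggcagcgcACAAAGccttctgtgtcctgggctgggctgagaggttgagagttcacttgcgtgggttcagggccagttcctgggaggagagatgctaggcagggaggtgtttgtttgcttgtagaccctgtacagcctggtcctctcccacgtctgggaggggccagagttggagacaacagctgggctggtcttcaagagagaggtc
Rasef, chr4:73790603-73790852, minus strand: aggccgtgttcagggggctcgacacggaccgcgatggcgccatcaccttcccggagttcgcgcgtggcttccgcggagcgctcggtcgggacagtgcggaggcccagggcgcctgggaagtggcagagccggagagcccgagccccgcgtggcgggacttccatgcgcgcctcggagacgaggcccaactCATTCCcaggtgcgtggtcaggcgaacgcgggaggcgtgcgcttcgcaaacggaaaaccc
Rab25, chr3:88548280-88548529, minus strand: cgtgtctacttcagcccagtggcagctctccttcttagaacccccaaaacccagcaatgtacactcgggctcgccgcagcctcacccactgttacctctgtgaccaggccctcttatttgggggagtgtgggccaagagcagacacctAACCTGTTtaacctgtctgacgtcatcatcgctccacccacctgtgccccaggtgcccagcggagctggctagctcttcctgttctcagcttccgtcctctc
Tspan8, chr10:115817034-115817283, plus strand: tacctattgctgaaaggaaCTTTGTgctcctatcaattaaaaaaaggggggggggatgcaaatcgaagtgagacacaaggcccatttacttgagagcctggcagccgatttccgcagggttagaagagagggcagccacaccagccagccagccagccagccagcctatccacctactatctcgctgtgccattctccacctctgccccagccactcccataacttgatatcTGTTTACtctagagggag
Scnn1b, chr7:121864788-121865037, plus strand: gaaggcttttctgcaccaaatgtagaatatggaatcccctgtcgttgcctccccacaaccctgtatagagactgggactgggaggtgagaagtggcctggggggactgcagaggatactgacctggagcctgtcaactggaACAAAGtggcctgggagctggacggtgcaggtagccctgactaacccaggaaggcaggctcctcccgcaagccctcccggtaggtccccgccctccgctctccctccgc

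The windows were searched for 8 short motifs, and a match is a description of letters only. The searched letters were GGAATG for TEAD, TGANTCA for AP-1, AACCNGTT for GRHL, ACAAAG for SOX, GTTAATNAT for HNF1, ATTGATT for HNF6, TGTTTAC for FOXA and CAAAGTC for HNF4, where ACAAAG and CAAAGTC can overlap. In the sequences above, the GRHL letters began 102 bases before the Rab25 start, the TEAD letters 60 bases before Rasef, and the SOX letters 199 bases before Anxa9 and 109 before Scnn1b. Upstream of Tspan8 the SOX letters began 231 and the FOXA letters 18 bases before the start, and neither Arhgef38 nor Lrfn4 had a match. Over the full windows of 250 bases before to 50 after a start, SOX letters were found in 26.5% of the 113 windows, in 14.3% of the 820 windows overlapped by caught-up regions and in 18.7% of all 32851 windows. GRHL letters were found in 4.4%, 1.0% and 2.1% of these sets, which is 5, 8 and 686 windows. TEAD letters stood in 17 of the 113 windows and in 14.0% and 14.7% of the other sets, and AP-1 letters in 7.1%, 6.0% and 7.8%. HNF1 letters were in 0 of the 113 windows, in 0.2% of those at caught-up regions and in 0.8% of all. In the same order, HNF6 letters stood in 0.9%, 1.7% and 2.9%, and FOXA letters in 1.8%, 2.3% and 3.6%. HNF4 letters stood in 3.5%, 1.5% and 4.4%, which is 4, 12 and 1459 windows. These shares were not tested, and they concern promoters, which are a minority of the 914 regions.

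Depth differed by cell type and touches every value below. Nuclear reads in regions ran from 201705 to 605309 in untreated hepatocytes, 1191409 to 2342643 in DDC hepatocytes, 4756891 to 9829886 in reprogrammed cells, 5151190 to 10395918 in DDC biliary cells and 2439831 to 4389653 in untreated biliary cells. A single read was thus worth up to 4.96 nuclear RPM in untreated hepatocytes, where 514 to 680 of the 914 regions had no read in a library, and counting error is large there. Between 29.1% and 42.4% of reads were mitochondrial in DDC hepatocytes and 4.69% to 14.8% in reprogrammed cells, which is why the mitochondrial regions were left out of the scaling. No 2 libraries of a group were copies, with a chi-square per degree of freedom of 2.18 to 7.47. At the defining genes, summed over its regions, Alb was at 693 ± 209 nuclear RPM in DDC hepatocytes, 90.6 ± 33.5 in reprogrammed cells and 72.8 ± 38.3 in DDC biliary cells (mean ± SD, n = 3 each). Hnf4a, a hepatocyte transcription factor, was at 370 ± 52.5, 162 ± 18.3 and 79.4 ± 14.9 in the same order, so its regions in reprogrammed cells sat above the biliary level.

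Cells of other types were checked in the same way. The macrophage list had regions for 3 of 8 genes, and Adgre1 and Clec4f had none; its summed level was 97.8 to 124 nuclear RPM in reprogrammed cells and 103 to 127 in DDC biliary cells. All 8 endothelial genes had regions, with a summed level of 145 to 203 in reprogrammed cells, 124 to 149 in DDC biliary and at most 108 in untreated biliary cells. Stellate and fibroblast markers (8 of 9 genes) gave 253 to 278, 222 to 251 and 212 to 248, and the lymphocyte list (4 of 8 genes) had means of 38.6, 41.4 and 36.4. The hepatocyte list (29 of 30 genes) was at 1244 to 2484 in reprogrammed cells, 835 to 1601 in DDC biliary and 1170 to 2713 in untreated biliary cells, so the groups overlapped. In bulk libraries fewer open cells and less opening per cell cannot be told apart, and the part of these levels in the results was not tested.

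The levels of the 914 regions formed 3 steps. Their median group mean was 1.12 nuclear RPM in DDC hepatocytes, 3.28 in reprogrammed cells, 10.31 in DDC biliary and 11.72 in untreated biliary cells, and 1.65 in untreated hepatocytes. The regions were chosen for the steps from reprogrammed to biliary cells and from DDC hepatocytes to DDC biliary cells, so these carry no test. All 3 libraries of reprogrammed cells lay below all 6 biliary libraries in 779 regions (85.2%), beside 3.83% of all tested regions; the rule used these values and nothing is read from the contrast. At the bound itself, the Krt19-tied region chr11:100155174-100156476 and a region on chromosome 4 without a gene (chr4:29661196-29662341) were just inside, with ratios to the lower biliary mean of 0.5 and 0.4995. Regions tied to Lmo7 and Tmc3 were just outside, at 0.5 and 0.5001.

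**Figure D1:**
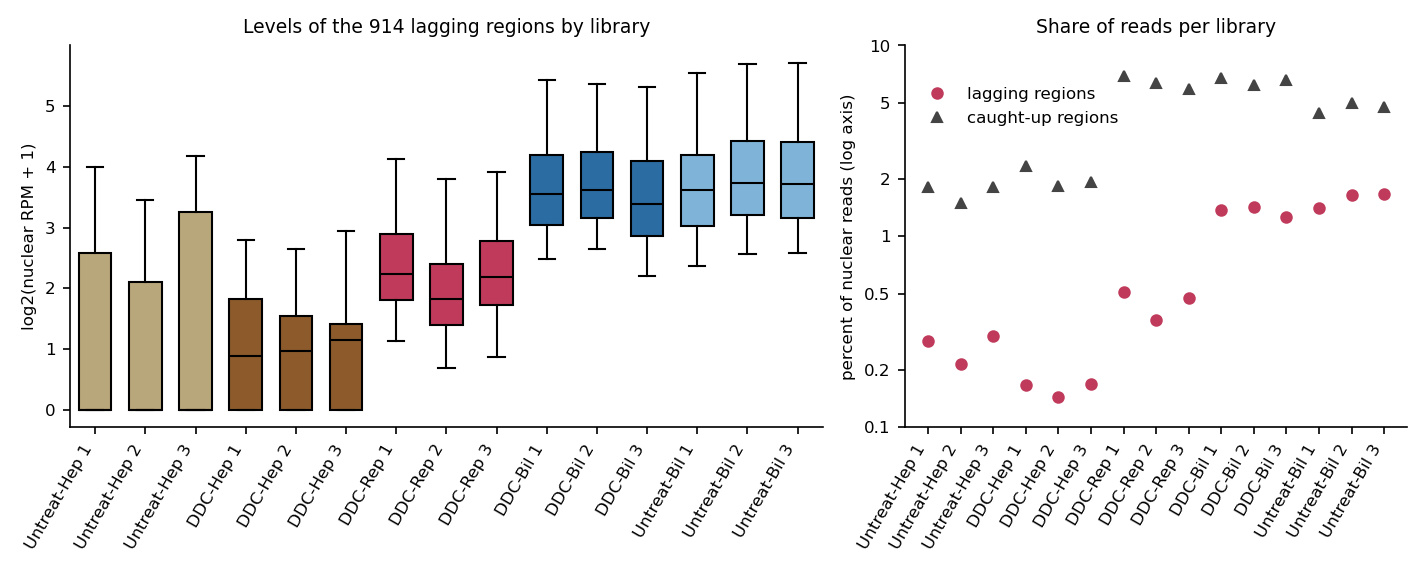
Left, log2(nuclear RPM + 1) of the 914 lagging regions in each of the 15 libraries (box, quartiles and median; whiskers, 5th to 95th percentile). Right, percent of nuclear reads in lagging (circles) and caught-up regions (triangles), on a log axis. Lagging regions held 0.365% to 0.515% of reads in reprogrammed cells against 1.262% to 1.659% in the 6 biliary libraries, while caught-up regions held 5.92% to 6.96% against 4.45% to 6.78%; both classes were chosen on these levels, so the contrast restates the choice.

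The share of all nuclear reads that fell in the 914 regions shows each library directly. It was 0.167%, 0.145% and 0.168% in DDC hepatocytes and 0.515%, 0.365% and 0.475% in reprogrammed cells. DDC biliary libraries had 1.373%, 1.433% and 1.262%, and untreated biliary libraries 1.418%, 1.652% and 1.659%. Reprogrammed cells thus stood 2.82 times above DDC hepatocytes, without overlap. A two-sided exact permutation test gave p = 0.1, the smallest that 3 against 3 allow. The rule capped both groups, so the choice of regions shaped this sum. In caught-up regions the ratio was 3.17, at the same exact permutation p of 0.1. That class has reprogrammed cells at 0.8 times or more of DDC biliary cells, and DDC hepatocytes at most 0.5 times them. Its choice thus set the direction in advance, and nothing is read from that ratio or its p. As a description with no test, since both classes were chosen on these levels, the reads in the 914 regions amounted to 7.04 ± 1.20% of those in caught-up regions in reprogrammed cells and to 7.95 ± 0.798% in DDC hepatocytes (SD, n = 3 each).

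Whether the same regions lagged in libraries that did not choose them was checked by leaving out 1 replicate number of all groups at a time. Chosen without replicate 1, 2 or 3, the rule gave 1137, 657 and 1087 regions. In the left-out libraries, reprogrammed cells were below both biliary libraries in 87.2%, 98.0% and 88.4% of them, and at most 0.5 times both in 42.9%, 83.1% and 51.4%. For the other biliary regions, these shares were 27.4%, 48.9% and 42.7% below both and 1.7%, 13.0% and 5.9% at most 0.5 times both. Reprogrammed library 2 stood apart within its group: it was the lowest of the 3 in 537 of the 914 regions (58.8%). The share was 54.8% in the regions between, 36.7% in caught-up regions and 47.9% in all regions. Of the 914, 810, 588 and 776 were chosen again without replicate 1, 2 or 3.

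The 2 marker genes of the set both held such a region. Arhgef38 encodes a guanine nucleotide exchange factor. Its region chr3:133233806-133235655 spans the start whose upstream bases are printed above. DDC biliary cells had 55.1, 49.9 and 43.4 nuclear RPM there, untreated biliary cells 86.1, 103 and 115, and reprogrammed cells 9.43, 11.6 and 11.1. DDC hepatocytes had 0, 0.958 and 6.72 and untreated hepatocytes 0 in all 3 libraries. All reprogrammed libraries therefore lay between the hepatocyte and the biliary libraries without overlap, at 17.4% of the way from the DDC hepatocyte to the DDC biliary mean. Reprogrammed cells were higher than DDC hepatocytes by 2.24 ± 0.55 (log2 difference of nuclear RPM + 1, estimate ± SE, limma adjusted p = 0.015). Untreated biliary cells were at least 35.2-fold higher than untreated hepatocytes, taking 3 reads over the group as the floor for libraries at 0.

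Shank2 encodes a scaffold protein of synapses and epithelial membranes. Its region chr7:143956138-143959235 lies 18842 bp from the gene body and spans a listed start of Gm34445, so the tie to Shank2 is by distance. The values were 95.2, 114 and 82.3 nuclear RPM in DDC biliary cells and 127, 151 and 148 in untreated biliary cells. Reprogrammed cells had 42.8, 38.7 and 37.6, DDC hepatocytes 17.1, 7.66 and 1.68, and untreated hepatocytes 9.92, 0 and 0. Reprogrammed cells again formed a separate middle group and exceeded DDC hepatocytes by 2.44 ± 0.745 on the log2 scale (limma adjusted p = 0.0392). The regions outside both genes whose log2 values followed the sum of the markers' members most closely over the 15 libraries were tied to Niban2 (Pearson r = 0.978), Sgms2 (0.976), Ier5l (0.969), Rnf43 (0.966) and Ptpn14 (0.966). This is a description over libraries that share group and depth; of these 5, only the Rnf43 region was itself among the 914.

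**Figure D2:**
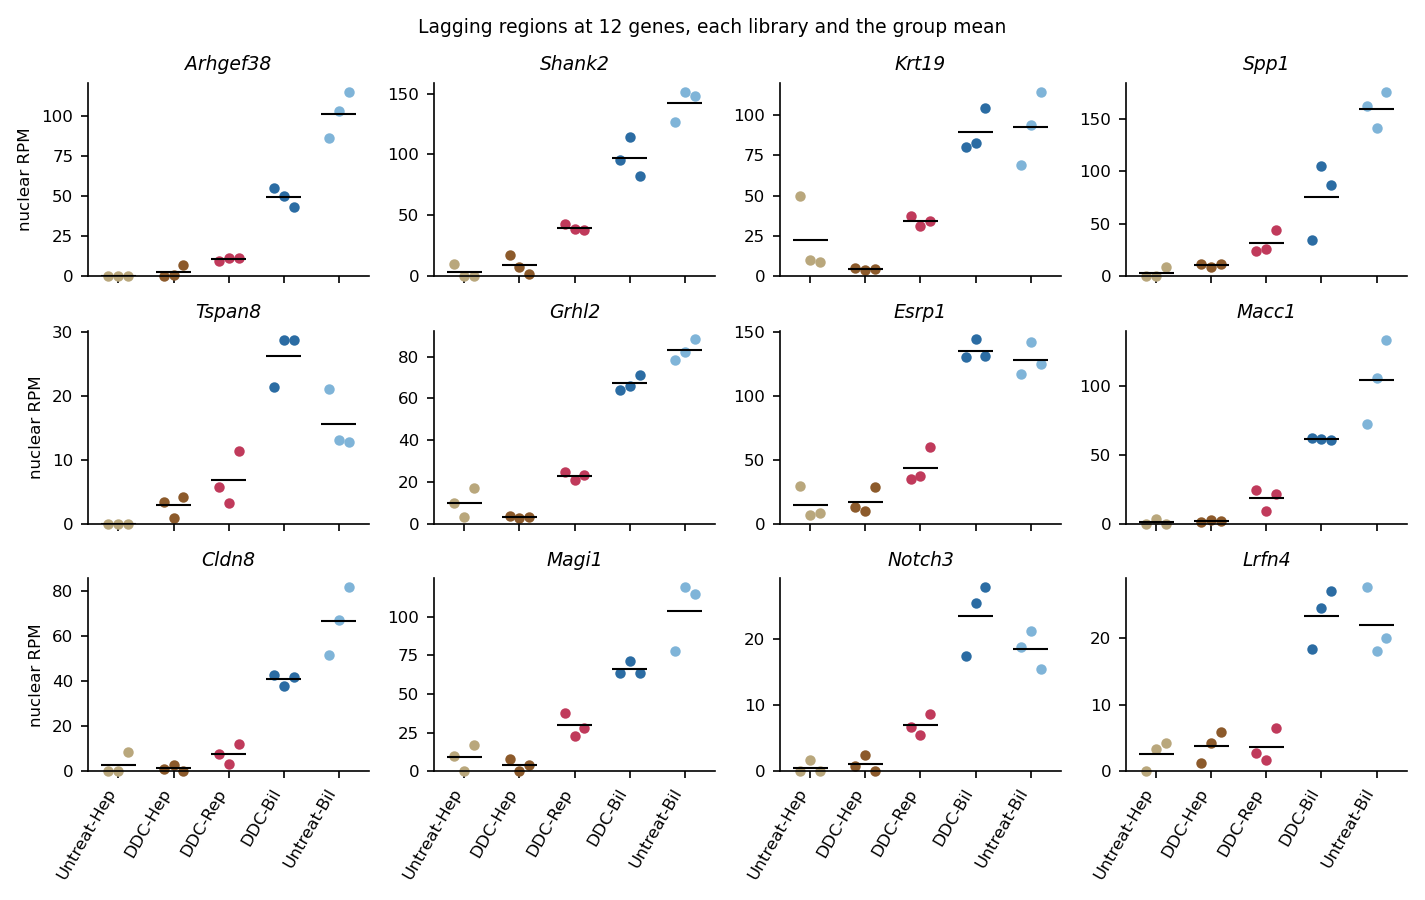
Nuclear RPM in each library (points) and the group mean (lines) for 12 of the lagging regions, the one of highest DDC biliary mean at each gene; axes start at 0. Reprogrammed cells lie above DDC hepatocytes at Grhl2 and Macc1 without overlap, and overlap them at Lrfn4.

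Genes of duct identity held 9 of the regions, out of 79 biliary regions tied to that list (11.4%, beside 12.45% of all biliary regions), while 17 of the 79 had caught up. Krt19, a keratin of the duct epithelium, had 3 biliary regions, and all 3 were members. The widest, chr11:100136033-100146661, gave 80.3, 82.9 and 105 nuclear RPM in DDC biliary, 37.3, 31.0 and 34.3 in reprogrammed, and 5.12, 3.83 and 4.20 in DDC hepatocyte libraries. Reprogrammed cells lay above DDC hepatocytes without overlap, by 2.71 ± 0.464 (log2, limma adjusted p = 0.00312). Summed over its 7 regions, Krt19 stood at 48.3 ± 6.21 in reprogrammed and 131 ± 12.7 in DDC biliary cells (SD, n = 3), while Sox9, a duct transcription factor, stood at 158 ± 17.3 and 141 ± 12.5.

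Spp1 encodes osteopontin, a phosphoprotein secreted by duct cells, and 2 of its 5 biliary regions were members. The region over the gene itself, chr5:104436440-104444729, had 163, 141 and 176 nuclear RPM in untreated biliary cells and 34.9, 105 and 86.7 in DDC biliary cells. Reprogrammed libraries had 23.7, 25.7 and 44.2 and overlapped DDC biliary library 1. Their difference from DDC hepatocytes, at 11.5, 8.62 and 11.8, was 1.43 ± 0.659 (log2, limma adjusted p = 0.159), although the libraries did not overlap.

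Grhl2, an epithelial transcription factor of the duct, had a region that rose in reprogrammed cells. Its region chr15:37232068-37234948 had 24.8, 20.8 and 23.1 nuclear RPM in reprogrammed libraries, 3.84, 2.87 and 3.36 in DDC hepatocytes and 64.0, 66.0 and 71.3 in DDC biliary cells. The difference from DDC hepatocytes was 2.46 ± 0.401 (log2, limma adjusted p = 0.00258), and no group overlapped another of these 3. At the start of Tspan8, a tetraspanin of epithelial surfaces, reprogrammed libraries were at 5.81, 3.26 and 11.4 and DDC hepatocytes at 3.42, 0.958 and 4.20, which overlapped (adjusted p = 0.193). Pkhd1, which encodes the ciliary protein fibrocystin, had 1 member, and it was the only member among 33 biliary regions of the cilium and cystic kidney list, of which 17 had caught up. Epithelial transcription factors held 3 members (Grhl2, Glis3 and Esrrg) among 67 biliary regions, with 20 caught up.

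The junction and polarity list held 12 members of 55 biliary regions (21.8%), against 12.45% over all biliary regions, and 11 of the 55 had caught up. The list includes genes of other roles, such as Esrp1 with 2 of the 12, Macc1 and Rab25, and Shank2 is tied by distance. The member with the highest DDC biliary mean lay in Esrp1, a splicing regulator of epithelial cells. In chr4:11384695-11388971, DDC biliary libraries had 130, 144 and 131 nuclear RPM, reprogrammed libraries 34.7, 36.9 and 60.1, and DDC hepatocytes 12.8, 9.58 and 28.5. Reprogrammed cells were higher than DDC hepatocytes by 1.42 ± 0.444 (log2, limma adjusted p = 0.043), without overlap. Cldn8, a claudin of tight junctions, was among the lowest in reprogrammed cells relative to ducts, at 0.186 times the lower biliary mean. Its region chr16:88561807-88564005 had 7.56, 3.05 and 12.2 in reprogrammed and 42.8, 37.9 and 41.7 in DDC biliary libraries, and the difference from DDC hepatocytes was not called (limma adjusted p = 0.0832).

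Macc1, placed in the same list, is known as a regulator of the receptor gene Met. Its region chr12:119389884-119391060 had 24.6, 9.36 and 21.9 nuclear RPM in reprogrammed cells and 1.28, 2.87 and 1.68 in DDC hepatocytes, a difference of 2.67 ± 0.534 (log2, limma adjusted p = 0.00615), with DDC biliary libraries at 61.9, 61.5 and 60.7. Magi1, a scaffold of tight junctions, had 3 members; the most open, chr6:94202834-94204881, had 37.9, 23.0 and 28.2 in reprogrammed, 7.68, 0 and 4.20 in DDC hepatocyte and 63.7, 71.1 and 63.2 in DDC biliary libraries. Dsp, the desmosomal plaque protein desmoplakin, and Rab25, a vesicle transport GTPase of epithelia, each had 1. At the Rab25 start, whose GRHL letters are marked above, reprogrammed libraries had 3.62, 2.14 and 5.89 while DDC hepatocytes had 0, 1.92 and 0. Of the 12 members of the junction and polarity list, 6 were higher in reprogrammed cells than in DDC hepatocytes. The share was 20.4% over all 914 and 8.14% over all tested regions.

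Transporters and channels of the duct held 6 members of 35 biliary regions, with 8 caught up. Among them were regions tied to the glucose transporter Slc2a1, the sodium channel subunit Scnn1b, the potassium channel Kcnq1 and the chloride channel Ano1. Of the 6, 1 was higher in reprogrammed cells than in DDC hepatocytes, at Scnn1b, which is close to the 20.4% of all 914 (8.14% of all tested regions). Its region, chr7:121864730-121865484, had 0 in all 3 DDC hepatocyte libraries and 1.64, 1.83 and 2.31 nuclear RPM in reprogrammed cells, at least 3.62-fold higher by the floor of 3 reads, against 3.94, 7.38 and 5.47 in DDC biliary cells.

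Basement membrane and integrin genes held 5 members of 61, and 19 caught up. Cd9, a tetraspanin that partners with integrins, had the most open of them: chr6:125466284-125468984 gave 36.7, 48.3 and 27.8 nuclear RPM in reprogrammed and 96.5, 78.2 and 68.8 in DDC biliary libraries. DDC hepatocytes had 10.7, 1.92 and 10.9, a difference of 2.35 ± 0.574 (log2, limma adjusted p = 0.0147). The laminin receptor subunit Itga6 had 0 in DDC hepatocytes and 4.49, 2.24 and 6.94 in reprogrammed cells, at least 8.54-fold higher, while regions of Itgb8, Col4a1 and Col4a3 were not called. The Notch list had 2 members of 35, with 14 caught up. At the receptor gene Notch3, chr17:32161997-32163010, reprogrammed cells had 6.69, 5.49 and 8.62 and DDC hepatocytes 0.854, 2.39 and 0 (2.09 ± 0.525, limma adjusted p = 0.0168).

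Targets and regulators of the YAP and TEAD growth pathway held 4 members of 45, tied to Ptpn14, Wwc1, Ankrd1 and Amotl2; 17 of the 45 had caught up and none of the 4 was called between reprogrammed cells and DDC hepatocytes. Growth factor receptors and ligands held 8 members of 44 beside 21 caught up: 4 at Igf1r, 3 at Lifr and 1 at Tgfa. All 3 biliary regions of Lifr, the leukaemia inhibitory factor receptor, were members. In the most open of them, chr15:7074593-7076768, reprogrammed libraries had 4.17, 2.14 and 2.94 nuclear RPM, overlapping DDC hepatocytes at 0.854, 1.92 and 3.36, with 12.2, 13.6 and 14.0 in DDC biliary cells. The lists were described by counts, with no set test. Hepatocyte, macrophage, endothelial, lymphocyte and neuronal lists held 0 members, of 1, 0, 2, 1 and 9 biliary regions, and the stellate list 1 of 4, near Col1a1.

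**Figure D3:**
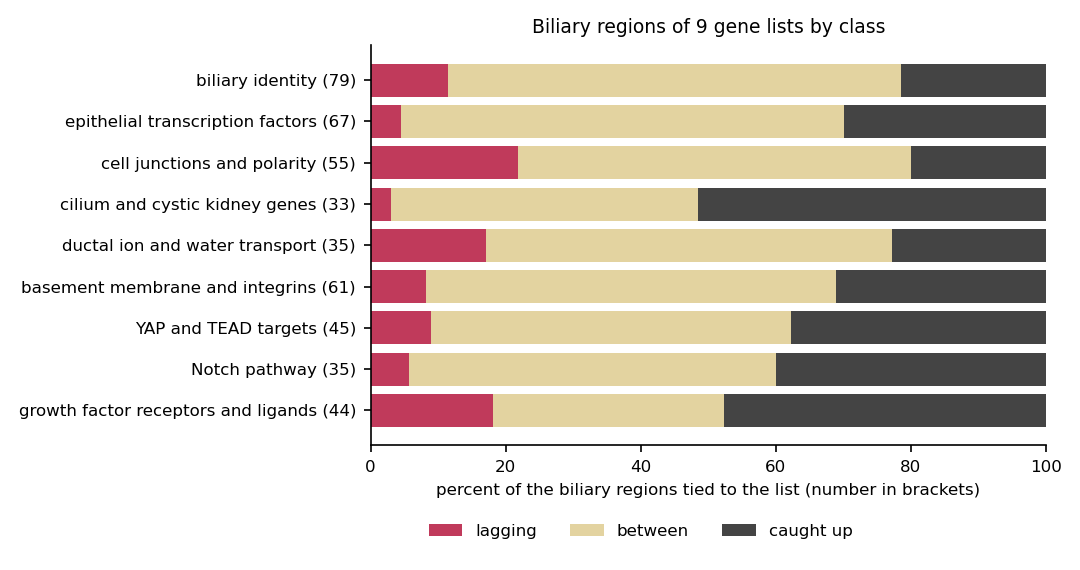
Percent of the biliary regions tied to each of 9 gene lists (number of regions in brackets) that were lagging, between, or caught up. Lagging shares range from 3.0% for cilium and cystic kidney genes to 21.8% for junction and polarity genes; the share over all biliary regions was 12.45%.

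Reprogrammed cells were compared with hepatocytes of the same injury, since the rule capped both groups but did not use their difference. Of the 914 regions, 186 (20.4%) were higher in reprogrammed cells at a limma adjusted p under 0.05, beside 8.14% of all 79075 tested regions. None was lower, beside 6.06% of all regions, and at an unadjusted p under 0.05 and by edgeR the number lower was also 0. Over all 7342 biliary regions, which share the cap on DDC hepatocytes, the number lower was 0 too. That cap favours few lower regions, so nothing is read from the 0. The median difference was 1.15 on the log2 scale, against 0.17 over all tested regions. All 914 passed the filter on low values, which their biliary floor guarantees. Over all 7342 biliary regions, which share the floor and the cap on DDC hepatocytes, 2702 (36.8%) were higher, so the members' share lay above that of all regions and below that of biliary regions. The bound on reprogrammed cells lowers the share in the 914 and raises it in caught-up regions, where 1173 of 2526 (46.4%) were higher, and nothing is read from that contrast. The number of calls rests on the fit, among the 914 and over all regions. By edgeR it was 473 of the 914, beside 14555 of all 79075 tested. On the deposited scale 543 were called, beside 18623 of 70538. A fit on only these 2 groups called 354 of 847, beside 12574 of 75556. Without the shallow untreated hepatocytes a fit called 514, beside 16728 of 79040.

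Single libraries also moved that count. Without reprogrammed library 1 it was 50, and without reprogrammed library 2 or 3 it was 106 or 102. Without DDC hepatocyte library 2 or 3 it was 105 or 121. Over all tested regions the numbers higher in these fits, in the same order, were 1901, 3254, 3826, 3496 and 4080. In each of these fits 0 of the 914 regions were lower, which the cap on DDC hepatocytes favours. Counted without a model, the reprogrammed mean was above the DDC hepatocyte mean in 859 of the 914 regions and at least 2 times it in 657. The cap on DDC hepatocytes favours this direction too. No such count over all regions is given here, so nothing is read from these 2 counts. All 3 reprogrammed libraries were above all 3 DDC hepatocyte libraries in 488 (53.4%), beside 24.7% of all tested regions and 79.3% of all 7342 biliary regions. The cap on DDC hepatocytes favours this direction, and the bound on reprogrammed cells lowers the share in the 914. Nothing is read from these contrasts.

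On the scale from DDC hepatocytes (0%) to DDC biliary cells (100%), the median region stood at 23.2%, with quartiles of 15.1% and 31.6% and a range from -33.2% to 49.3%; caught-up regions had a median of 96.4%. The bound of the rule fixes the upper end. In 55 regions the reprogrammed mean was below that of DDC hepatocytes. Among members with both biliary means of 20 or more (144 regions), the lowest ratios to the lower biliary mean were at Lrfn4 (0.166), an adhesion molecule known from synapses, Myh14 (0.181), a nonmuscle myosin heavy chain, Casz1 (0.182), a zinc finger transcription factor, Anxa9 (0.184), an annexin, and Cldn8 (0.186).

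**Figure D4:**
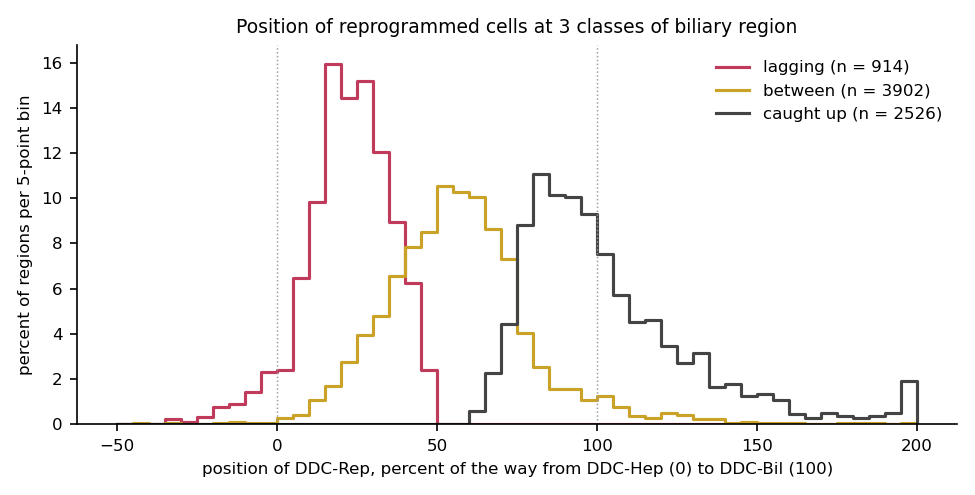
Distribution of the reprogrammed mean on the scale from the DDC hepatocyte mean (0) to the DDC biliary mean (100), as percent of the regions of each class per bin of 5 points; the last bin holds all higher values. The 914 lagging regions peak near their median of 23.2% and end at 49.3%, the bound of the rule, while caught-up regions have a median of 96.4%.

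At the Lrfn4 start (chr19:4614690-4616347), reprogrammed libraries had 2.74, 1.63 and 6.52 nuclear RPM, DDC hepatocytes 1.28, 4.31 and 5.88 and DDC biliary cells 18.3, 24.5 and 27.1. The 2 former groups overlapped (log2 difference -0.06 ± 0.624, limma adjusted p = 0.965). At the Anxa9 start (chr3:95306483-95308136), reprogrammed cells had 6.80, 3.76 and 4.63, DDC hepatocytes 0.427, 0.958 and 5.04 and DDC biliary cells 34.5, 42.3 and 20.4. Reprogrammed and hepatocyte libraries overlapped here too. The largest rises over DDC hepatocytes were in regions tied to Tead3, a TEAD transcription factor (3.78 ± 0.763), to no gene within 50 kb (chr15:27340453-27342333, 3.71 ± 0.841), and to Irf2bpl (3.36 ± 0.444), Igsf9b (3.31 ± 0.472) and Cfap53 (3.25 ± 0.567, level with Fgf12 at 3.25, which was added after its value was seen), with limma adjusted p of 0.00634, 0.0105, 0.00109, 0.00162 and 0.00338. In the Tead3 region (chr17:28340297-28341740), reprogrammed libraries had 23.2, 18.8 and 13.5 and DDC hepatocytes 1.71, 0 and 0.

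Few of these regions were called different between the biliary cells of DDC and untreated mice. The rule asks for high means in both groups, which favours few differences, so the counts are not read against all regions. Between DDC and untreated biliary cells, 0 of the 914 regions were higher by limma, beside 2.92% of all regions, with 3 at an unadjusted p under 0.05 and 1 by edgeR. A further 2 of 914 were lower, beside 0.545% of all regions, with 27 at an unadjusted p under 0.05 and 44 by edgeR. They lay in Mcc (-1.91 ± 0.505, limma adjusted p = 0.0483), a tumour suppressor candidate, and Cadps2 (-1.50 ± 0.39, adjusted p = 0.0449), a factor of vesicle release. In the Cadps2 region (chr6:23549800-23550598), untreated biliary libraries had 20.8, 17.6 and 20.3 nuclear RPM, DDC biliary libraries 6.64, 7.77 and 4.69, and reprogrammed cells 0.987, 0.814 and 0.420. Both calls were lost without DDC biliary library 1 or 3, or without any 1 of the 3 untreated biliary libraries. A fit on only the 4 groups other than untreated hepatocytes called 1 higher and 32 lower, and a fit on the 2 biliary groups alone 28 higher and 110 lower.

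The median difference between DDC and untreated biliary cells was -0.12 for the 914 regions, 0.36 for caught-up regions and 0.06 for all tested regions, where both classes were chosen with these groups' levels. On the deposited scale the median for the 914 was 0.02 and that for all regions 0.17. The share of nuclear reads in the 914 regions was 1.36 ± 0.0868% in DDC and 1.58 ± 0.137% in untreated biliary cells (SD, n = 3; two-sided exact permutation p = 0.2), with overlapping libraries. In caught-up regions it was 6.53 ± 0.273% against 4.74 ± 0.269%, without overlap (exact permutation p = 0.1). At Arhgef38 the DDC biliary libraries (43.4 to 55.1) were all below the untreated ones (86.1 to 115), a difference of -1.02 ± 0.55 that was not called (limma adjusted p = 0.424).

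Untreated hepatocytes are the only group the rule did not use. Against them, untreated biliary cells were higher in 747 of the 914 regions (81.7%), beside 22.1% of all tested regions, and lower in 0, beside 10.9%; at an unadjusted p under 0.05, 1 was lower, and edgeR gave 747 higher and 0 lower. The floor on untreated biliary cells in the rule favours this direction. Over all 7342 biliary regions, which share that floor, 4881 (66.5%) were higher. The bound on reprogrammed cells also asks for high untreated biliary means in the 914, so nothing is read from that contrast. A fit on the 2 groups alone called 464 higher. The median difference was 2.82 (log2 of nuclear RPM + 1), against 0.39 over all regions. In 317 regions all untreated hepatocyte libraries were at 0, and with these set to the bound of 3 reads the median was 2.20. Beside Arhgef38, the largest fitted differences were at chr6:101472704-101474044 with no gene within 50 kb (6.53 ± 0.4), Spp1 (6.24 ± 0.659), Hs1bp3 (6.20 ± 0.424) and Ttll10 (6.09 ± 0.5). All had a limma adjusted p of 1.39e-05 or lower. The chr6 and Hs1bp3 regions were at 0 in all untreated hepatocyte libraries, so their fitted values rest on the added 1. By the floor of 3 reads they were at least 32.2-fold and 25.2-fold higher.

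Between DDC and untreated hepatocytes the calls went both ways: 40 of 914 were higher, beside 9.94% of all regions, and 40 lower, beside 2.2%. DDC hepatocytes are capped by the rule, which favours lower values. These counts moved with the fit, and the part of the low depth of untreated hepatocytes in that was not tested. A fit on the 2 groups alone called 0 of 562 in either direction (32 higher and 26 lower at an unadjusted p under 0.05), beside 0 of all 68629. By edgeR 9 of the 914 were higher and 16 lower, beside 5130 and 352 of all 79075. On the deposited scale 105 of the 914 were higher and 6 lower, beside 33558 and 190 of all 70538. Without untreated hepatocyte library 1, 2 or 3 the number lower was 86, 77 or 72, and without DDC hepatocyte library 1 or 3 it was 24 or 25; the number higher was 89 without untreated library 2 and 26 without DDC library 1. Degs2, which makes hydroxylated sphingolipids, was among the 5 largest rises: its region chr12:108698237-108702925 had 0 in all untreated and 8.54, 1.92 and 6.72 nuclear RPM in DDC hepatocyte libraries, at least 1.99-fold higher, with reprogrammed cells at 19.5, 17.5 and 21.4. The other 4 were tied to Tnp1, Ckmt1, Prr15l and Spp1, and the 5 largest falls to B3galnt2, Pld1, App, Capn8 and 1810009J06Rik. These comparisons share groups, so calls of one are not independent of those of the next.

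**Figure D5:**
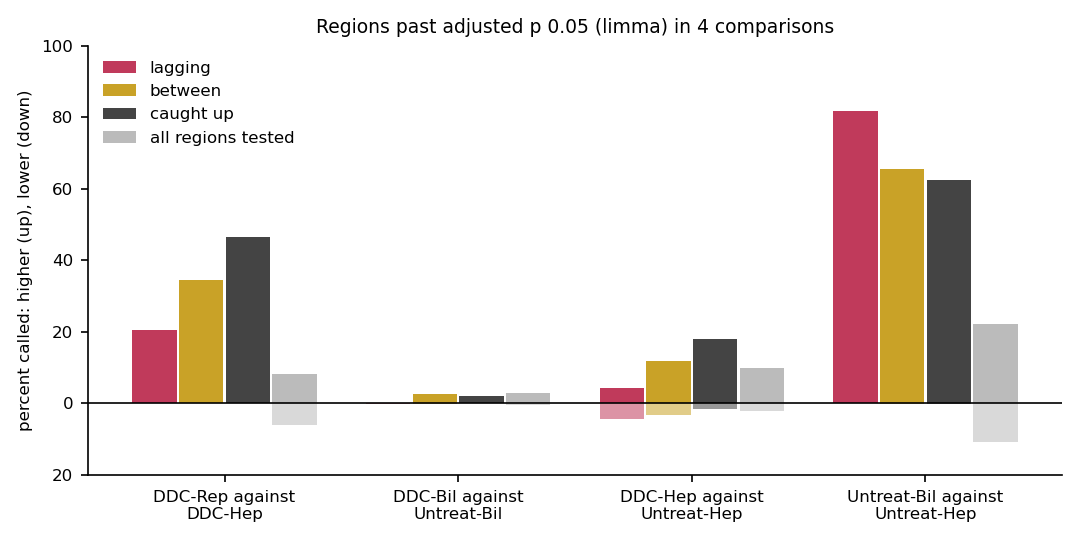
Percent of lagging, between, caught-up and all tested regions called higher (above 0) or lower (below 0, paler) at limma adjusted p 0.05 in 4 comparisons. Lagging regions have 20.4% higher in reprogrammed cells than in DDC hepatocytes against 46.4% of caught-up regions. The choice of both classes by their level in reprogrammed cells favours this contrast. In untreated biliary cells against untreated hepatocytes 81.7% are higher, against 62.5% of caught-up regions. Both classes were also chosen with untreated biliary levels, so nothing is read from that contrast.

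The place of the 914 regions relative to genes is given as a description, with no test. Of the 879 on chromosomes with listed starts, 12.3% were within 1 kb of one, against 27.6% of caught-up, 20.3% of all biliary and 15.4% of all regions. A further 47.9% were inside a gene body, 21.3% within 50 kb of a gene and 18.5% farther away, where caught-up regions had 41.1%, 20.8% and 10.5%. Their median width was 1114.5 bp (quartiles 835 and 1582.5), against 1639.5 bp for caught-up and 706 bp for all regions. Width was called by the authors' peak finding and moves with signal, and the median DDC biliary mean was 10.31 nuclear RPM here and 18.40 in caught-up regions; the part of that in the width was not tested.

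The 914 regions were spread over 20 chromosomes, and 734 were tied to 636 protein-coding genes. Most of these genes (560) had 1 member, 59 had 2, 13 had 3, 3 had 4, and Casz1 had 5 of its 9 biliary regions. Cracdl had 4 of 6, App, the amyloid precursor gene, 4 of 8, and Igf1r 4 of 11. Neighbouring regions share a locus and are not independent: 79 members had another within 10 kb and 173 within 50 kb. In 20 of the 351 genes with a member and at least 2 biliary regions, all were members. Among them were Krt19, Esrp1, Ugt8a, Blnk and Lifr with 2 or 3 each.

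Lagging and caught-up regions also stood at the same gene: 149 of the 636 genes had both. Only the 351 of these genes with 2 or more biliary regions could hold both. Of the 774 other biliary regions at genes with a member, 29.5% had caught up, against 41.4% of the 4848 at genes without one. Ugt8a, which makes galactosylceramide, shows a gene where all lagged: at its start (chr3:125937113-125939312), reprogrammed libraries had 12.2, 15.3 and 16.6 nuclear RPM against 42.6, 51.8 and 46.8 in DDC biliary cells, and DDC hepatocytes 1.28, 3.83 and 12.6. Blnk, an adaptor known from B cell receptor signalling, had 3 of 3; at its start (chr19:40993110-40996349), reprogrammed libraries (13.3, 5.19 and 9.67) overlapped DDC hepatocytes (6.83, 5.75 and 10.1), with 28.4, 35.3 and 25.5 in DDC biliary cells.

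Casz1 had members at 5 places from 5794 bp outside to deep inside the gene. The most open, chr4:148797402-148798572, had 4.38, 3.56 and 5.89 nuclear RPM in reprogrammed cells, 1.71, 1.92 and 1.68 in DDC hepatocytes, 27.6, 24.7 and 23.8 in DDC biliary and 29.1, 46.7 and 42.8 in untreated biliary cells. Reprogrammed libraries were above all hepatocyte libraries of the same injury there, by a difference that was not called (limma adjusted p = 0.211). None of the 5 Casz1 members was called between reprogrammed cells and DDC hepatocytes.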

How the data were processed

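ATAC-seq was measured in 15 libraries, 3 for each of 5 groups. The authors deposited 1 table of 93217 regions, made with the mm10 build and the tools bedtools, Bowtie2, MACS2 and SAMtools, per the submitters' processing notes. The sources used here do not give versions, duplicate handling or the way regions were merged. The deposited values are labelled as TPM but behave as RPM: values up to 100 reads were whole multiples of each library's smallest step within 0.02, with no division by length. In reprogrammed library 1 that step is close to a power of 10, so its pattern is weaker evidence. The plan had already taken library-scaled values, so no test changed.

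The 2 mitochondrial regions were left out and columns rescaled to 1000000 (nuclear RPM). The test was limma-trend (limma 3.58.1, R 4.3.3) on log2(nuclear RPM + 1) with all 15 libraries in 1 fit, the 79075 regions whose mean reached 1, and a threshold of 0.05 after Benjamini-Hochberg adjustment over them; changes of low regions are understated on this scale. It was tested on simulated data first. Alternatives were deposited scaling, pseudocounts of 0.5 and 5, no filter, edgeR 4.0.16 on recovered reads, only the groups compared, a replicate block and leaving out each library; the fit without untreated hepatocytes, and the difference of the DDC effects, were added after seeing the data. Single values per library were compared by exact permutation tests (scipy 1.17.1). The floor of 3 reads covers counting error only, while SD and SE measure the spread from library to library. Figures were drawn with matplotlib 3.10.9 and tables made with pandas 2.3.3 and numpy 2.4.6 in Python 3.11.15.

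Regions were tied to the RefSeq protein-coding gene (GRCm38.p6) whose body they touched, else to the nearest within 50 kb; 8 members touched 2 bodies. Named were members at the 2 marker genes and at list genes, the 12 genes with most members, the 10 members of highest DDC biliary mean, the 5 of lowest ratio, up to 5 per comparison and direction, and the regions at the bound. The members and gene lists were chosen with earlier results of these data known. Replicate numbers were not taken to pair libraries, since only 4 of 30 same-number pairs had deviations correlated above 0.1; all 4 were among the DDC groups, where the 9 pairs ran from 0.019 to 0.209, so a weak shared origin there is possible. Sequences other than promoters were not analysed here, and 1 gene list and 1 named region are not reported here.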

Additional observations from a re-analysis of the deposited data

Results flagged for a closer look

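The effect of DDC differed between the cell types at 12 of the 914 regions, by a limma interaction term over all 15 libraries (adjusted p under 0.05). The DDC effect in biliary cells was above that in hepatocytes in 2 of the 914 regions, beside 0.554% of all tested regions. It was below that in hepatocytes in 10, beside 1.8%. Both counts are smaller shares of the 914 than those over all tested regions. The 2 were tied to Tacc1 (difference of effects 3.37 ± 0.674, log2, estimate ± SE) and B3galnt2 (3.11 ± 0.685). The largest of the 10 was in Hs1bp3 (-3.73 ± 0.599, limma adjusted p = 0.0091). In its region (chr12:8324992-8327326), untreated biliary libraries had 75.6, 70.5 and 72.0 nuclear RPM and DDC biliary libraries 25.8, 29.5 and 23.0, while untreated hepatocytes were at 0 and DDC hepatocytes at 6.83, 1.44 and 5.04. The next was chr6:101472704-101474044, with no gene within 50 kb (-3.49 ± 0.565). The term includes the shallow untreated hepatocytes and was fitted under this setting only. It also uses DDC biliary, untreated biliary and DDC hepatocyte levels, which the rule bounded, so nothing is read from the shares. No value per library was tested for standing apart, since every group has 3 libraries.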

How the results depend on the processing

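The rule gave 716 regions on the deposited scale (695 shared), 345 with reprogrammed cells at most 1/3 of both biliary means, 409 with a floor of 10, and 657 to 1137 without 1 replicate number. Of regions higher in reprogrammed cells than in DDC hepatocytes (186), the deposited scale gave 543, edgeR 473, only the groups compared 354, the fit without untreated hepatocytes 514, and single libraries left out 50 to 142; the 186 were among the calls of the deposited scale, of edgeR and of the fit without untreated hepatocytes. For DDC against untreated biliary cells, higher (0) became 3 as deposited, 2 with a pseudocount of 5, 1 with edgeR, 28 with only the groups compared and 1 without untreated hepatocytes, and lower (2) became 15, 23, 44, 110 and 32 in that order, 0 with a pseudocount of 0.5, 1 with no filter, 1 with the replicate block and 0 to 2 with single libraries left out. For DDC against untreated hepatocytes, higher (40) became 105 as deposited, 66 and 10 with pseudocounts of 0.5 and 5, 9 with edgeR, 0 with only the groups compared and 26 to 89 with libraries left out; lower (40) became 6 as deposited, 16 with edgeR, 0 with only the groups compared and 24 to 86. For untreated biliary cells against untreated hepatocytes, higher (747) became 464 with only the groups compared and 647 to 752 with libraries left out, and lower (0) became 1 with a pseudocount of 5. Calls over all tested regions also moved with the setting, so these counts have no fixed background. Such calls are given above where reprogrammed cells or untreated hepatocytes were compared with DDC hepatocytes. The cause of these shifts was not tested. The replicate block gave 172, 37, 36 and 738 where 186, 40, 40 and 747 stood, and the numbers were not taken to pair the libraries.

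Over the single regions named, 4701 alternative values kept their direction and side of the threshold, 249 moved, 263 passed it and 220 lost it, and 0 changed sign while called. Depth limits untreated hepatocytes most: with 201705 to 605309 nuclear reads, a region at 0 in all 3 libraries can still have up to 2.88 nuclear RPM.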
